A study of Mus musculus with 42 samples.

Results

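The red cell genes described here are the adult beta globin genes Hbb-bs and Hbb-bt, the alpha globin genes Hba-a1 and Hba-a2, and Alas2, which encodes the erythroid form of 5-aminolevulinate synthase. They are 5 of the 26811 genes in the count table, and they were chosen by name as the hemoglobin and heme synthesis genes whose levels stood out among these tumors in earlier results. Their levels across treatments and across replicate numbers are therefore given as a description: where the fit across all genes called them, the count is printed and nothing is read from it. The table holds poly(A) RNA-seq of 42 subcutaneous tumors of MC38, a colon carcinoma line derived from C57BL/6J mice. Every host was a female F1 mouse of CC075/UncJ (a Collaborative Cross strain) and C57BL/6J, aged 8 to 12 weeks, so line, sex and cross were shared by all groups. The groups were isotype control (5 tumors), aPD1 (6), aPD1 + aGMCSF (9), aPD1 + aIL2RB (11) and aPD1 + aGMCSF + aIL2RB (11). aPD1, aGMCSF and aIL2RB are blocking antibodies against PD-1, GM-CSF and the beta chain of the IL-2 receptor, and the blockade antibodies or their isotypes (100 µg aGMCSF, 200 µg aIL2RB) were given every 3 days from engraftment. A single 200 µg dose of aPD1 or of its isotype was given once tumors reached 75 to 110 mm3, and tumors were collected 48 h later. The comparison with the isotype control asks what aPD1 did to the tumor transcriptome, and the comparison with aPD1 alone asks what the added blockade changed. All tumors came from 1 cell line and 1 cross, and each is a different animal.

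Hemoglobin of the adult mouse is a tetramer of alpha and beta chains, each carrying heme, and its genes are transcribed at very high levels in maturing red cells. ALAS2 makes the first intermediate of heme in these cells, while ALAS1 does so in other cells. Reticulocytes in blood still hold globin mRNA, so whole tissue RNA usually contains some from its vessels. In bulk tumor RNA, fewer cells of a type and less RNA per cell cannot be told apart.

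The beta genes lie 14.1 kb apart on the minus strand of chromosome 7 and the alpha genes 12.98 kb apart on the plus strand of chromosome 11. On GRCm38, Hbb-bs (ENSMUSG00000052305) spans chr7:103826534-103828096 and Hbb-bt (ENSMUSG00000073940) spans chr7:103812524-103813996. Hba-a1 (ENSMUSG00000069919) spans chr11:32283511-32284465, Hba-a2 (ENSMUSG00000069917) spans chr11:32296489-32297298, and Alas2 (ENSMUSG00000025270) spans chrX:150547375-150570638 on the plus strand. Reads were counted over exons of these transcripts. The 150 bases before the RefSeq start are printed below for 4 of them (GRCm38.p6, 5′ to 3′ on the strand of the gene), because these genes moved together across tumors. Capitals mark 3 short motifs on either strand, with no overlap between the marked letters. CACCC is bound by KLF factors and reads GGGTG on the opposite strand. The NF-Y motif CCAAT reads ATTGG there, and the motif GATAA of GATA factors reads TTATC.
Hbb-bs, chr7:103827929-103828078: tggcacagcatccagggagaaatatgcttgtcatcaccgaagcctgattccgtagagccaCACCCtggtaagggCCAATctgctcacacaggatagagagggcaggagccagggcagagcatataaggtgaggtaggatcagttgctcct
Hbb-bt, chr7:103813924-103814073: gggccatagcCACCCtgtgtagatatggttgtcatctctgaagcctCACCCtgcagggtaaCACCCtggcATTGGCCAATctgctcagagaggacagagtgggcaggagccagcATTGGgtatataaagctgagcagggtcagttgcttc
Hba-a2, chr11:32296342-32296491: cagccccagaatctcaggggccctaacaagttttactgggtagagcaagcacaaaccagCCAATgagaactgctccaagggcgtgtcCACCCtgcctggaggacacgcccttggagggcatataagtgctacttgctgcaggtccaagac
Alas2, chrX:150547267-150547416: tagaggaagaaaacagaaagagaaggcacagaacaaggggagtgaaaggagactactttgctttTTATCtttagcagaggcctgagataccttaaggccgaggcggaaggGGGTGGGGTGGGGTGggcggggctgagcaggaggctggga
Hbb-bs and Hbb-bt each had CACCC and CCAAT next to each other, at 90 and 76 bases before the start in Hbb-bs and at 89 and 75 in Hbb-bt. Hba-a2 had CCAAT 91 bases and CACCC 63 bases before its start. The Hba-a1 window is that of Hba-a2 moved by 3 bases, with 0 mismatches over 297 bases. Alas2 had no CCAAT, 3 CACCC on the opposite strand from 40 to 30 bases before the start, and GATAA on the opposite strand 86 bases before it. The globin genes had GATAA further out, 182 to 209 bases before the start and outside the printed stretch. These letters are common: among 32851 RefSeq windows from 250 bases before to 50 after a start, 57.5% held CACCC, 37.4% CCAAT and 25.4% GATAA. A match describes the sequence and does not show that a factor bound there.

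Near-identical copies limit what each globin row means. Of the 100-base windows of Hbb-bs exons, 49.7% were also found in another globin row, as were 54.8% for Hbb-bt, 63.3% for Hba-a1 and 79.5% for Hba-a2. Expected counts of Hbb-bs and Hbb-bt were fractional in 34 of 42 tumors, yet added together they gave a whole number in each tumor, and the same held for the alpha pair, which was fractional in 10. Reads were thus divided between the copies by estimation, and the sums are firmer than the single rows. Alas2 was fractional in 34 tumors, and its sum with Apex2 lay within 0.1 of a whole number in all 42. Apex2 encodes a DNA repair nuclease and overlaps Alas2 on the opposite strand. Apex2 counts ranged from 135.9 to 509.1 and Alas2 counts from 2.1 to 361.5, with a median of 22.5, so Alas2 values of the lower tumors rest on few reads.

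Total counts ranged from 7155486 to 24101674 per tumor, and the second lowest total was 15109227. Globin rows took a median of 0.00512% of counts (range 0.00126 to 0.0986%). Levels are given as CPM, the usual counts-per-million unit, with the library size scaled by TMM, and levels of different genes are compared per kilobase of exon, apart from shares of the raw count, which are named as such. Hba-a2 had the highest median level per kilobase at 39.1 CPM, followed by Hbb-bs at 25.6, Hbb-bt at 4.90 and Alas2 at 0.471. Hba-a1 was at 0 in 31 of 42 tumors, where a floor of 3 counts corresponds to 0.127 to 0.395 CPM. Its highest value was 23.5 counts (1.05 CPM) in aPD1 + aGMCSF + aIL2RB replicate 9, and it took at most 1.94% of alpha globin counts in any tumor. Hba-a1 did not pass the filter on low counts, so 4 of the 5 genes entered the fit across all genes.

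Hbb-bs, the beta globin row with the higher counts, overlapped between all treatment groups. In the isotype controls it was at 8.45, 8.35, 62.6, 77.0 and 37.7 CPM in replicates 1 to 5. Replicates 1 and 2 were thus low and the other 3 higher, with none in between. In aPD1 tumors it was at 7.70, 5.76, 279, 15.9, 76.4 and 17.3 CPM in replicates 1 to 6, and replicate 3 stood far above the rest. Levels in aPD1 + aGMCSF ran from 11.0 through a median of 27.4 to 34.5 CPM, the narrowest spread of the 5 groups. Levels in aPD1 + aIL2RB ran from 7.33 through 13.9 to 82.9 CPM. In aPD1 + aGMCSF + aIL2RB they ran from 6.52 through 15.9 to 360 CPM, the highest value of all 42 tumors.

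By mean, Hbb-bs was highest in aPD1 (66.9 ± 107 CPM, SD, n = 6), then aPD1 + aGMCSF + aIL2RB (51.4 ± 103, n = 11), isotype control (38.8 ± 31.1, n = 5), aPD1 + aIL2RB (31.3 ± 28.1, n = 11) and aPD1 + aGMCSF (23.4 ± 8.39, n = 9). By median the order was isotype control, aPD1 + aGMCSF, aPD1, aPD1 + aGMCSF + aIL2RB and aPD1 + aIL2RB. Each step between neighbours was smaller than the larger of their SDs, in both orders.

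Hbb-bt and Hba-a2 followed Hbb-bs closely over these tumors, and Alas2 less so. Hbb-bt, the beta globin row with the lower counts, was at 1.46, 1.51, 12.6, 10.7 and 5.04 CPM in the isotype controls and at 2.17, 1.14, 42.6, 2.67, 8.72 and 2.15 CPM in aPD1. Hba-a2, the alpha chain gene that took nearly all alpha counts, was at 11.0, 11.8, 89.8, 87.4 and 44.4 CPM in the isotype controls. In aPD1 tumors Hba-a2 was at 13.2, 5.70, 323, 21.3, 102 and 21.1 CPM. As for Hbb-bs, isotype replicates 1 and 2 were the low ones and aPD1 replicate 3 the high one. Alas2 was at 0.472, 0.639, 2.12, 2.79 and 0.794 CPM in the isotype controls and at 1.06, 1.14, 9.25, 1.03, 2.18 and 1.17 CPM in aPD1. Its highest tumors were again aPD1 replicate 3 and the highest one of aPD1 + aGMCSF + aIL2RB (17.05 CPM). Its lowest aPD1 tumor was replicate 4, not replicate 2 as for Hbb-bs, and aPD1 + aIL2RB replicate 9, with Hbb-bs at 79.7 CPM, had Alas2 at 0.664 CPM.

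**Figure D1:**
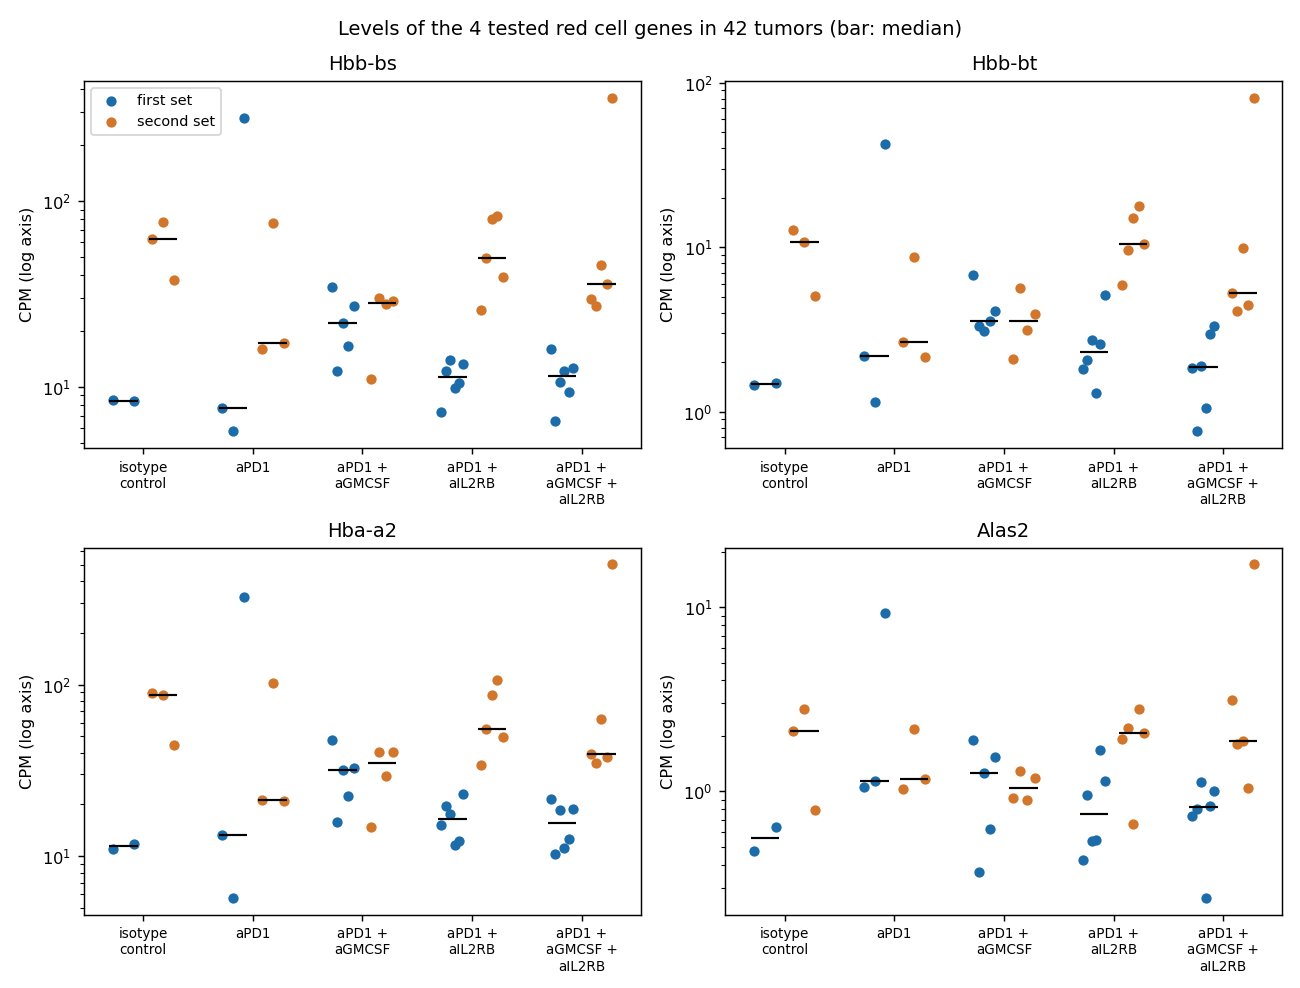
Level of each tested red cell gene in CPM (log axis) for every tumor, by treatment group; blue points are the first set of replicate numbers, orange points the second, and bars are medians. The highest point of Hbb-bs is 360 CPM in aPD1 + aGMCSF + aIL2RB, and the next is 279 CPM in aPD1.

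Group means ± SD followed the same spread. Hbb-bt was at 6.28 ± 5.19 CPM in isotype control, 9.91 ± 16.2 in aPD1, 3.96 ± 1.42 in aPD1 + aGMCSF, 6.77 ± 5.70 in aPD1 + aIL2RB and 10.6 ± 23.5 in aPD1 + aGMCSF + aIL2RB. Hba-a2 was at 48.9 ± 38.7, 81.1 ± 124, 30.6 ± 11.3, 39.2 ± 32.2 and 70.0 ± 144 CPM in the same order of groups. Alas2 was at 1.36 ± 1.03, 2.64 ± 3.27, 1.11 ± 0.468, 1.36 ± 0.818 and 2.69 ± 4.82 CPM. For each gene the smallest SD was in aPD1 + aGMCSF, and the SD exceeded the mean in both groups that held the highest tumors.

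Those tumors were aPD1 replicate 3 and aPD1 + aGMCSF + aIL2RB replicate 11. Over the median of the other aPD1 tumors, replicate 3 was 17.5-fold higher in Hbb-bs, 19.6-fold in Hbb-bt, 15.3-fold in Hba-a2 and 8.11-fold in Alas2. Over the median of the other 10 tumors of its group, replicate 11 was 25.3-fold higher in Hbb-bs, 25.7-fold in Hbb-bt, 24.9-fold in Hba-a2 and 16.8-fold in Alas2. The globins were thus higher by like factors within each of these tumors, and Alas2 by a smaller one. Other markers differed between these tumors. In aPD1 replicate 3 the summed level of 11 skeletal muscle genes was 919 CPM, the highest of 42 (median 44.8), and that of 11 blood neutrophil genes was 31.1 CPM (median 13.2). In replicate 11 these sums were 32.8 and 10.1 CPM. Replicate 11 had the highest level of 42 tumors for Slc4a1 (1.08 CPM), the red cell anion exchanger, and for Tal1 (4.43 CPM), a transcription factor of blood precursors. Its summed levels over the red cell gene lists were not high, at 311 CPM for membrane genes (median of all tumors 339), 835 for enzymes (median 881) and 419 for transcription factors and receptors (median 428). In aPD1 replicate 3 those sums were 365, 921 and 446 CPM. The part of these markers in the globin levels was not tested.

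Within tumors the chains stayed near each other. Per kilobase of exon, alpha globin was at 1.27 times beta globin in the median tumor (range 0.937 to 1.88). Hbb-bt made up 16.7% of beta globin per kilobase (8.46 to 29.5%), a share that rests on how reads were divided between the 2 rows. Alas2 was at 0.620 per 100 of globin on the same scale (0.106 to 2.66). Over 42 tumors, log2 CPM of Hbb-bs correlated with Hba-a2 at r = 0.99 (0.97 and 0.99 within the first and second set of replicate numbers described below), and with Hbb-bt at r = 0.95 (0.91 and 0.96). With Alas2 the value was r = 0.79 (0.76 and 0.72), or 0.63 without the pair of highest tumors. Spearman's rho with Alas2 was 0.67 over all tumors, 0.36 in the first set and 0.51 in the second, lower than r in each. These points share library and depth, and the beta rows share reads, so the values are a description.

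**Figure D2:**
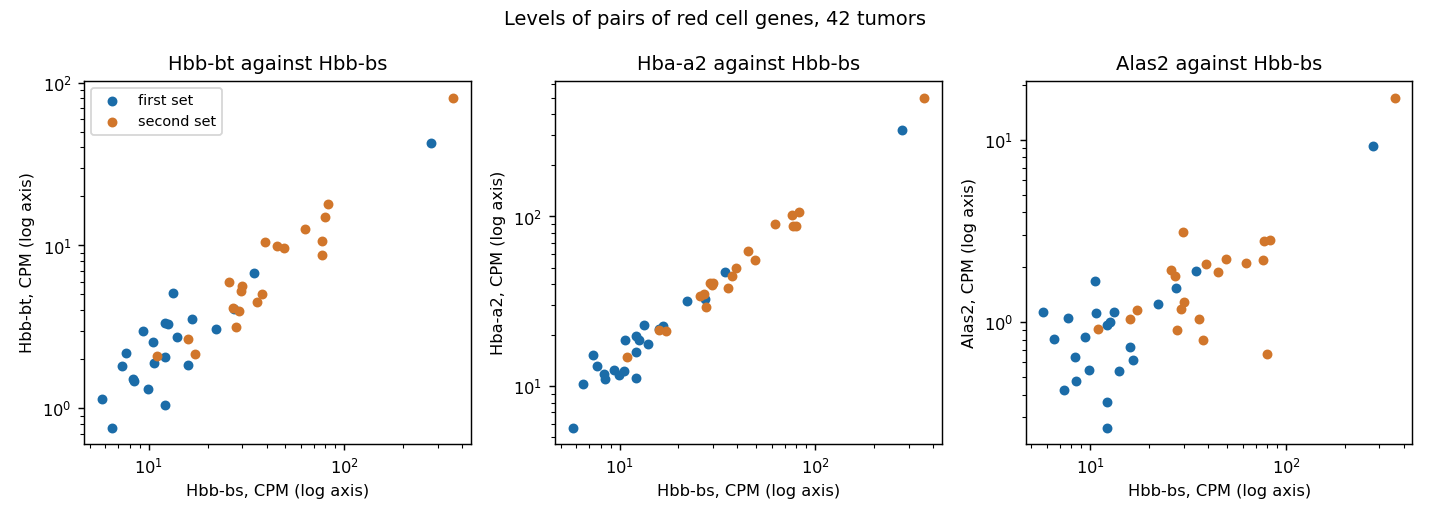
Hbb-bt, Hba-a2 and Alas2 against Hbb-bs, each point 1 of 42 tumors, both axes in CPM on a log scale, colored by set of replicate numbers. Hba-a2 follows Hbb-bs most closely (r = 0.99), and Alas2 scatters most (r = 0.79).

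Fitted by treatment alone, the differences in the 4 tested genes were at most 1.52 on the log2 scale in either direction, with SEs of 0.58 to 0.90. In aPD1 against isotype control the log2 fold change was 0.79 (SE 0.88) for Hbb-bs and 0.95 (SE 0.72) for Alas2. Against isotype control, the 4 genes ranged from -0.73 to -0.30 in aPD1 + aGMCSF, from -0.31 to 0.12 in aPD1 + aIL2RB and from 0.41 to 1.00 in aPD1 + aGMCSF + aIL2RB. Against aPD1 they ranged from -1.52 to -1.26 in aPD1 + aGMCSF, from -1.10 to -0.55 in aPD1 + aIL2RB and from -0.37 to 0.11 in aPD1 + aGMCSF + aIL2RB. Those comparisons share the isotype or the aPD1 tumors. At an adjusted p of 0.05 in the fit across all genes, 0 of the 4 were called in each of these 7 comparisons. The share of all 16932 tested genes called was 8.71% for aPD1 against isotype control, 0% for aPD1 + aGMCSF, 3.20% for aPD1 + aIL2RB and 10.2% for aPD1 + aGMCSF + aIL2RB. Against aPD1 it was 13.5% for aPD1 + aGMCSF, 27.4% for aPD1 + aIL2RB and 27.4% for aPD1 + aGMCSF + aIL2RB. Nothing is read from these counts, since the levels served to choose the genes. Leaving out aPD1 + aGMCSF + aIL2RB replicate 11 alone, Hbb-bs and Hba-a2 were called lower in that group than in aPD1, beside 25.2% of all genes. For aPD1 + aGMCSF against isotype control, edgeR called 0 genes, 938 had an unadjusted p under 0.05, and DESeq2 called 4.

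The pair of highest tumors set the direction in several of these comparisons. Without them, aPD1 against isotype control gave -0.67 (SE 0.66) for Hbb-bs and -0.06 for Alas2, and aPD1 + aGMCSF + aIL2RB against isotype control gave -0.92 (SE 0.55) for Hbb-bs and -0.10 for Alas2. Hbb-bs was then at -0.07 (SE 0.59) in aPD1 + aGMCSF and at 0.36 (SE 0.57) in aPD1 + aIL2RB against aPD1. The comparisons of aPD1 + aGMCSF and aPD1 + aIL2RB with isotype control, which do not hold those tumors, moved little (-0.74 for Hbb-bs in the former).

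With the set of replicate numbers described below as a further term, the differences from aPD1 were larger. Hbb-bs was then at 1.85 (SE 0.84) in aPD1 against isotype control, and the other 3 genes at 1.45 to 1.69. In aPD1 + aGMCSF against isotype control the 4 genes were at 0.04 to 0.05, in aPD1 + aIL2RB at -0.06 to 0.34 and in aPD1 + aGMCSF + aIL2RB at 0.50 to 1.01. Against aPD1, Hbb-bs was at -1.81 (SE 0.67) in aPD1 + aGMCSF, -1.91 (SE 0.65) in aPD1 + aIL2RB and -1.34 (SE 0.67) in aPD1 + aGMCSF + aIL2RB, where Hbb-bt was at -0.85 and Alas2 at -0.44. Hbb-bs and Hba-a2 were called in aPD1 + aIL2RB against aPD1 in this fit, beside 30% of all genes, and no member in the other 6 comparisons. The values that involve aPD1 rested on the pair of highest tumors. With the set term and without them, Hbb-bs was at -0.60 (SE 0.44) in aPD1 against isotype control, and at 0.69 (SE 0.41), 0.55 (SE 0.39) and 0.18 (SE 0.40) against aPD1 in the same order of groups, and no member was called.

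**Figure D3:**
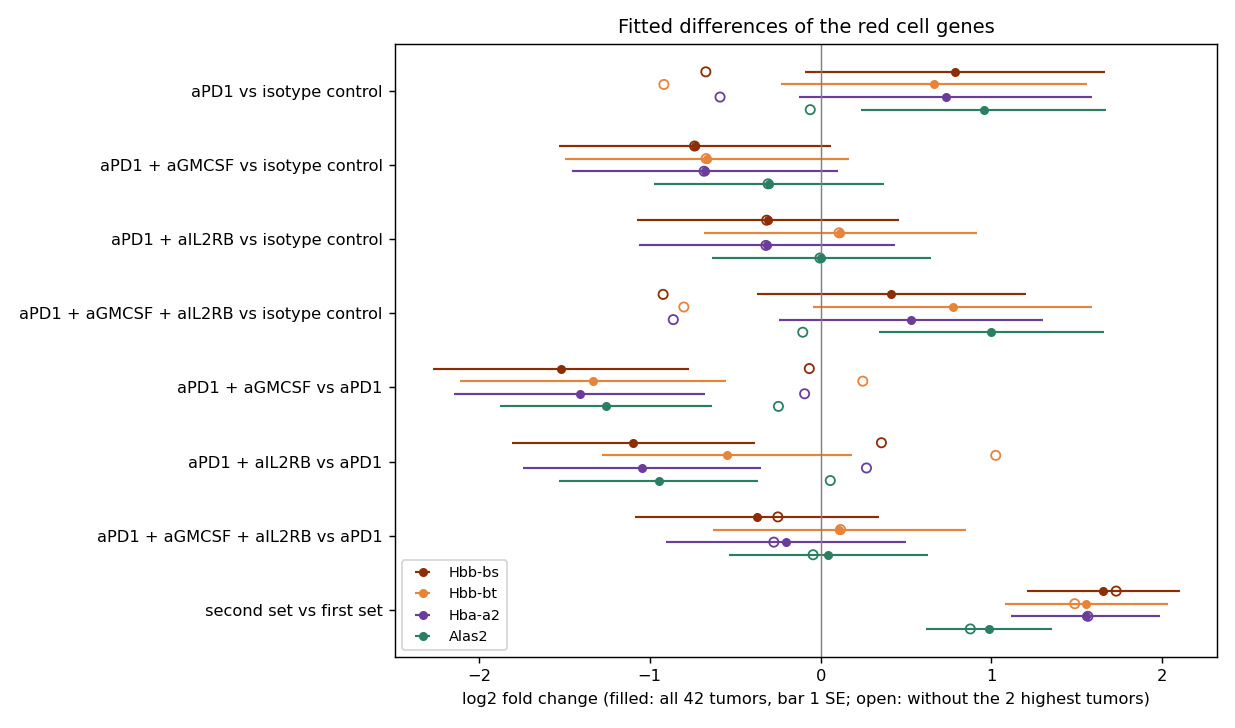
Fitted log2 fold change of each tested red cell gene in every treatment comparison and between the sets of replicate numbers, with bars of 1 SE over all 42 tumors; open circles leave out the 2 highest tumors. Hbb-bs in aPD1 against isotype control goes from 0.79 to -0.67, whereas between sets it goes from 1.65 to 1.73.

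All 4 tested genes were higher in tumors of higher replicate number. A first set of 22 tumors (isotype control 1 to 2, aPD1 1 to 3, aPD1 + aGMCSF 1 to 5, both aIL2RB groups 1 to 6) and a second set of 20 (all higher numbers) had been drawn from earlier results of these data. No label says what separates them, and values for the sets describe a split that was itself drawn from the data. With treatment in the fit, the second set was higher by 1.65 (SE 0.45) on the log2 scale in Hbb-bs, 1.56 (SE 0.47) in Hbb-bt, 1.55 (SE 0.44) in Hba-a2 and 0.99 (SE 0.37) in Alas2. All 4 passed the adjusted p of 0.05, as did 25.1% of all tested genes, and nothing is read from that count. Without the pair of highest tumors the values were 1.73 (SE 0.24), 1.49 (SE 0.25), 1.56 (SE 0.24) and 0.88 (SE 0.22).

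The size of this difference varied among groups. In the isotype controls the median Hbb-bs level of the second set was 7.45 times that of the first, and the factors were 7.66 for Hba-a2 and 3.81 for Alas2. Neither set overlapped the other in any of the 4 genes there, against 13% of all genes higher in the second set with no overlap. In aPD1 + aIL2RB the factors were 4.35, 3.36 and 2.76, and in aPD1 + aGMCSF + aIL2RB 3.14, 2.53 and 2.29. In both of these groups the 3 globins did not overlap between sets and Alas2 did, against 5.42% and 3.01% of all genes. In aPD1 the factors were 2.25, 1.61 and 1.03, and in aPD1 + aGMCSF 1.29, 1.10 and 0.828. For Hbb-bt the factors were 7.22 in isotype control, 1.23 in aPD1, 1.0003 in aPD1 + aGMCSF, 4.53 in aPD1 + aIL2RB and 2.82 in aPD1 + aGMCSF + aIL2RB. As a mean difference in log2 CPM, the second set was lower in aPD1 for Hbb-bt (-0.38) and Alas2 (-0.68) and in aPD1 + aGMCSF for Hbb-bt (-0.19), and this direction in aPD1 came from replicate 3. Without replicate 3 the second set of aPD1 was higher by 1.18 in Hbb-bt and 0.31 in Alas2, and Hbb-bs (2.03) and Hba-a2 (2.03) did not overlap between sets, against 14.4% of all genes in those 5 tumors. With it, all 4 genes overlapped between sets in these groups, against 6.99% and 3.43% of all genes without overlap. The differences among groups were not tested.

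Within sets, several treatment comparisons pointed in opposite directions, and others did not. Against aPD1, the fitted log2 values of aPD1 + aGMCSF were negative in both sets, at -2.12 and -0.55 for Hbb-bs, and all 4 genes kept that sign. The first-set value rested on aPD1 replicate 3, beside aPD1 tumors at 7.70 and 5.76 CPM. As mean differences in log2 CPM the Hbb-bs values were only -0.14 and -0.28. By median, Hbb-bs was higher in aPD1 + aGMCSF than in aPD1 in both sets (22.1 against 7.70 CPM, and 28.4 against 17.3 CPM). In the first set, the 5 aPD1 + aGMCSF tumors had Hbb-bs at 34.5, 12.1, 22.1, 16.6 and 27.4 CPM, all above the isotype tumors at 8.45 and 8.35 CPM. Hbb-bt and Hba-a2 did not overlap either, whereas 6.20% of all genes were above isotype control without overlap. In the second set, the 4 aPD1 + aGMCSF tumors had Hbb-bs at 11.0, 29.9, 27.8 and 29.1 CPM, all below the isotype tumors at 62.6, 77.0 and 37.7 CPM. Hba-a2 was also below without overlap, as were 2.48% of all genes. Fitted within the first set, Hbb-bs was at 1.42 (SE 0.89) on the log2 scale in aPD1 + aGMCSF against isotype control, and within the second at -1.28 (SE 0.75). For aPD1 against isotype control the values were 3.54 (SE 1.01) and -0.72 (SE 0.81), the former resting on aPD1 replicate 3. All 4 genes were called lower than in aPD1 in the first set in both aIL2RB groups, beside 15.6% and 5.37% of all genes, in comparisons that also hold that tumor. In the second set the sign was the other way in both groups, and Hbb-bt was called higher in aPD1 + aGMCSF + aIL2RB than in aPD1 (2.28, SE 0.85), beside 29.6% of all genes, in a comparison that holds replicate 11. The level of the isotype controls thus depended on the set, and with 2 and 3 isotype tumors per set these values are imprecise.

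Defining markers of red cells and their precursors were near the floor. Slc4a1 was at 0 in 24 of 42 tumors, Hemgn in 30, Trim58 in 41 and Rhag in 38. Gata1, the main erythroid transcription factor, was at 0 in 39 tumors with at most 2 counts, and Klf1, a globin gene activator, was at 0 in 9 with at most 14 counts. Of 12 such markers only Epor, the erythropoietin receptor, passed the filter, with at most 14 counts. Globin mRNA was thus measured beside few reads from genes of red cell precursors.

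A wider set of lists with 107 red cell and heme genes, chosen with earlier results known, gave 78 tested genes besides the members. Higher and lower calls numbered 9 and 1 in aPD1 against isotype control, 0 and 0 in aPD1 + aGMCSF, 1 and 2 in aPD1 + aIL2RB, and 4 and 5 in aPD1 + aGMCSF + aIL2RB. In the same order, 12.8%, 0%, 3.85% and 11.5% of the 78 were called, beside 8.71%, 0%, 3.20% and 10.2% of all tested genes. Against aPD1 they were 3 and 13 in aPD1 + aGMCSF, 5 and 23 in aPD1 + aIL2RB, and 7 and 24 in aPD1 + aGMCSF + aIL2RB, or 20.5%, 35.9% and 39.7% of the 78 beside 13.5%, 27.4% and 27.4% of all genes. Within the first set, aPD1 against isotype control gave 0 calls in the lists and 2 over all genes. The calls against aPD1 there were 0, 14 and 1 in the lists and 27, 2713 and 934 over all genes. Within the second set, aPD1 against isotype control gave 16 and 2177, and the comparisons with aPD1 gave 24, 23 and 36 beside 2736, 3683 and 4949.

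Of 16 tested heme synthesis genes, 0 were called in aPD1 against isotype control, where the median log2 fold change was -0.06 against -0.00 over all genes. Alas1, the synthase of non-erythroid cells, was lower than in aPD1 by 0.24 (SE 0.08, adjusted p = 0.0444) in aPD1 + aGMCSF, by 0.30 (SE 0.08, adjusted p = 0.00426) in aPD1 + aIL2RB and by 0.38 (SE 0.08, adjusted p = 0.000397) in aPD1 + aGMCSF + aIL2RB, on the log2 scale. Within the first set these log2 fold changes were -0.19, -0.20 and -0.16, none of them called, and within the second -0.30, -0.41 and -0.65, all called. Fech, which inserts iron into protoporphyrin, was 0.22 (SE 0.08, adjusted p = 0.0311) higher in aPD1 + aGMCSF + aIL2RB than in aPD1. Abcb6, a porphyrin transporter, was 0.17 (SE 0.06, adjusted p = 0.0252) higher there. Neither was called within a set, where Fech was at 0.18 and 0.24 (adjusted p = 0.289 and 0.0813) and Abcb6 at 0.14 and 0.19 (adjusted p = 0.376 and 0.0873). All adjusted p-values are from edgeR's quasi-likelihood test.

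Some genes of heme breakdown and iron handling rose with aPD1. Of 18 tested, 4 were higher and 0 lower than in isotype control, with a median of 0.31 against -0.00 over all genes, of which 8.71% were called. Fth1 and Ftl1, the ferritin chains that store iron, rose by 0.51 (SE 0.12, adjusted p = 0.00598) and 0.44 (SE 0.12, adjusted p = 0.0197). Trf, the iron carrier transferrin, rose by 0.94 (SE 0.22, adjusted p = 0.00614), and Slc11a1, a metal transporter of macrophage phagosomes, by 0.99 (SE 0.32, adjusted p = 0.0479). Within the second set all 4 were called, with log2 fold changes of 0.69, 0.64, 1.39 and 1.13, and within the first none was, at 0.34, 0.25, 0.40 and 0.88. Against aPD1, 7 of 18 were lower in aPD1 + aGMCSF, 8 in aPD1 + aIL2RB and 8 in aPD1 + aGMCSF + aIL2RB, where 1 was higher, beside 13.5%, 27.4% and 27.4% of all genes called in either direction. Hmox1, the inducible enzyme that opens the heme ring, was lower by 0.86 (SE 0.27, adjusted p = 0.0295), 0.76 (SE 0.26, adjusted p = 0.0246) and 1.01 (SE 0.26, adjusted p = 0.00280) in these groups. Without aPD1 replicate 3 the log2 fold changes of Hmox1 were -0.71, -0.62 and -0.87 and the adjusted p was 0.0870, 0.0932 and 0.0154. In aPD1 + aIL2RB Hmox1 was called in neither set (-0.82 and -0.69, adjusted p = 0.106 and 0.101). In aPD1 + aGMCSF and aPD1 + aGMCSF + aIL2RB it was not called in the first set (-0.66 and -0.54, adjusted p = 0.431 and 0.374) and was in the second (-1.02 and -1.54, adjusted p = 0.0303 and 0.000406). Fth1 was lower by 0.52 (SE 0.10, adjusted p = 0.000593), 0.52 (SE 0.10, adjusted p = 6.78e-05) and 0.63 (SE 0.10, adjusted p = 5.01e-06). In the first set Fth1 was called in aPD1 + aIL2RB (-0.37, adjusted p = 0.0240) and not in the other two (-0.30 and -0.29, adjusted p = 0.234 and 0.120), and in the second set it was called in all 3. Of 7 tested blood neutrophil genes 1 was higher in aPD1 than in isotype control, and 4, 1 and 4 were lower than in aPD1 in the blockade groups. Of the 6 leukocyte and tumor epithelium genes 1 was higher in aPD1 than in isotype control. Ptprc, which encodes the pan-leukocyte antigen CD45, was 0.97 (SE 0.25, adjusted p = 0.0130) higher in aPD1 than in isotype control, and at -0.81, -1.29 and -0.98 against aPD1 in the blockade groups. Csf3r, the G-CSF receptor of neutrophils, was 1.49 (SE 0.30, adjusted p = 0.00211) higher in aPD1, and at -1.35, -1.57 and -1.39 against it. The part of these markers in the iron gene differences was not tested.

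Red cell membrane, enzyme and transcription factor genes had more lower than higher calls against aPD1 in the aIL2RB groups. In both groups membrane genes gave 1 higher and 3 lower calls of 13, and enzyme genes 1 and 7 of 17. Transcription factor and receptor genes gave 1 and 4 of 12 in aPD1 + aIL2RB, and 1 and 5 with both blockades. Of all genes 27.4% were called in each. In aPD1 + aGMCSF these lists gave 0 and 1, 1 and 3, and 1 and 1, beside 13.5% of all genes. Of 13 tested membrane and cytoskeleton genes, 2 were higher and 0 lower in aPD1 than in isotype control, or 15.4% called beside 8.71% of all genes. They were Sptb, erythroid beta spectrin, which muscle also expresses (1.11, SE 0.36, adjusted p = 0.0454), and Epb41, protein 4.1 (0.25, SE 0.06, adjusted p = 0.0122). Sptb was highest of 42 tumors in aPD1 replicate 3 (5.38 CPM) and was not called without it (0.86, SE 0.36, adjusted p = 0.120), and 10 of 11 skeletal muscle genes were also higher in that comparison (median 4.24). Blvrb, biliverdin reductase B, was higher by 0.57 (SE 0.12, adjusted p = 0.00411) in aPD1 and lower than in aPD1 by 0.65 (SE 0.11, adjusted p = 0.000131), 0.62 (SE 0.10, adjusted p = 9.80e-06) and 0.58 (SE 0.10, adjusted p = 3.73e-05) with aGMCSF, aIL2RB and both. Within the first set Blvrb was called only in aPD1 + aIL2RB against aPD1 (-0.47, adjusted p = 0.0240) among these 4 comparisons, with 0.35 in aPD1 against isotype control (adjusted p = 0.454) and -0.41 and -0.28 against aPD1 in the other two (adjusted p = 0.204 and 0.243). Within the second set all 4 were called, at 0.77, -0.89, -0.76 and -0.89. Car2, a carbonic anhydrase at a mean of 0.888 CPM, was lower than in isotype control by 2.22 (SE 0.43, adjusted p = 0.00189) in aPD1 + aIL2RB. Within the first set Car2 was at -2.18 (adjusted p = 0.109, not called), and within the second at -2.08 (adjusted p = 0.0258, called). Tfrc, the transferrin receptor, was lower than in aPD1 by 0.50 (SE 0.13, adjusted p = 0.00258) in aPD1 + aIL2RB.

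Between the sets, 7 of the 78 were higher in the second and 10 lower, or 21.8% called beside 25.1% of all tested genes. Heme synthesis had 4 higher and 1 lower of 16, with a median of 0.06 against -0.01 over all genes. Cpox, coproporphyrinogen oxidase, was 0.30 (SE 0.05, adjusted p = 1.58e-05) higher, Alad 0.19 (SE 0.06, adjusted p = 0.0138) and Uros 0.18 (SE 0.06, adjusted p = 0.0266) higher, and Fech 0.15 (SE 0.04, adjusted p = 0.00636) lower. These steps are small beside 1.65 for Hbb-bs and 0.99 for Alas2. No tested membrane gene was higher, and Aqp1, a water channel of red cells and endothelium, was lower by 0.58 (SE 0.09, adjusted p = 1.17e-05). Mb, the muscle oxygen carrier myoglobin, was lower by 3.56 (SE 0.58, adjusted p = 2.51e-05). Hp, haptoglobin, which binds free hemoglobin and is also made by fat and neutrophils, was higher by 1.88 (SE 0.21, adjusted p = 5.82e-08). All 9 adipocyte genes were higher too (median 1.94). Of 6 leukocyte and tumor epithelium genes 3 were higher and 0 lower (median 1.25), namely the epithelial keratins Krt8 (4.66, SE 0.36) and Krt18 (4.09, SE 0.38) and the epithelial adhesion gene Epcam (2.22, SE 0.38). Of 7 blood neutrophil genes 2 were higher, the granule genes Ltf (2.86, SE 0.50) and Lcn2 (2.28, SE 0.46), and 1 lower, Csf3r (-0.44, SE 0.14). The part of these markers in the globin difference was not tested.

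Correlations of Hbb-bs with 12 gene lists, the rRNA genes and total counts are a description with no test, since Hbb-bs levels served to choose the genes and both Hbb-bs and several lists differ between the sets. Heme synthesis gave r = 0.43 and rho = 0.46 over 42 tumors, and r = 0.37 without the 2 tumors farthest from the median of that list. Within the first and second sets r was 0.06 and 0.33 for heme synthesis. For each further list the farthest tumors are those of that list, which need not be the pair with the highest Hbb-bs. Blood neutrophil genes gave r = 0.52 and rho = 0.51, or r = 0.44 without the farthest tumors, with 0.58 and 0.09 within sets. Adipocyte genes gave r = 0.46 and rho = 0.59, or r = 0.47 without the farthest tumors, with 0.42 and -0.33 within sets. The leukocyte and tumor epithelium genes gave r = 0.40 and rho = 0.53, or r = 0.41 without the farthest tumors, with 0.03 and -0.31 within sets. Red cell membrane genes went the other way, with r = -0.34 and rho = -0.46, or r = -0.56 without the farthest tumors, with 0.51 and -0.37 within sets. Skeletal muscle genes gave r = -0.00 and rho = -0.07 over all tumors, with 0.72 and 0.0061 within sets, and total counts gave r = 0.10. Several first-set values rested on aPD1 replicate 3. Without it, the first-set r was -0.05 for neutrophil genes, 0.14 for adipocyte genes, 0.13 for membrane genes and 0.51 for skeletal muscle genes. None of the 4 lists with the highest r over all tumors kept that r in both sets.

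**Figure D4:**
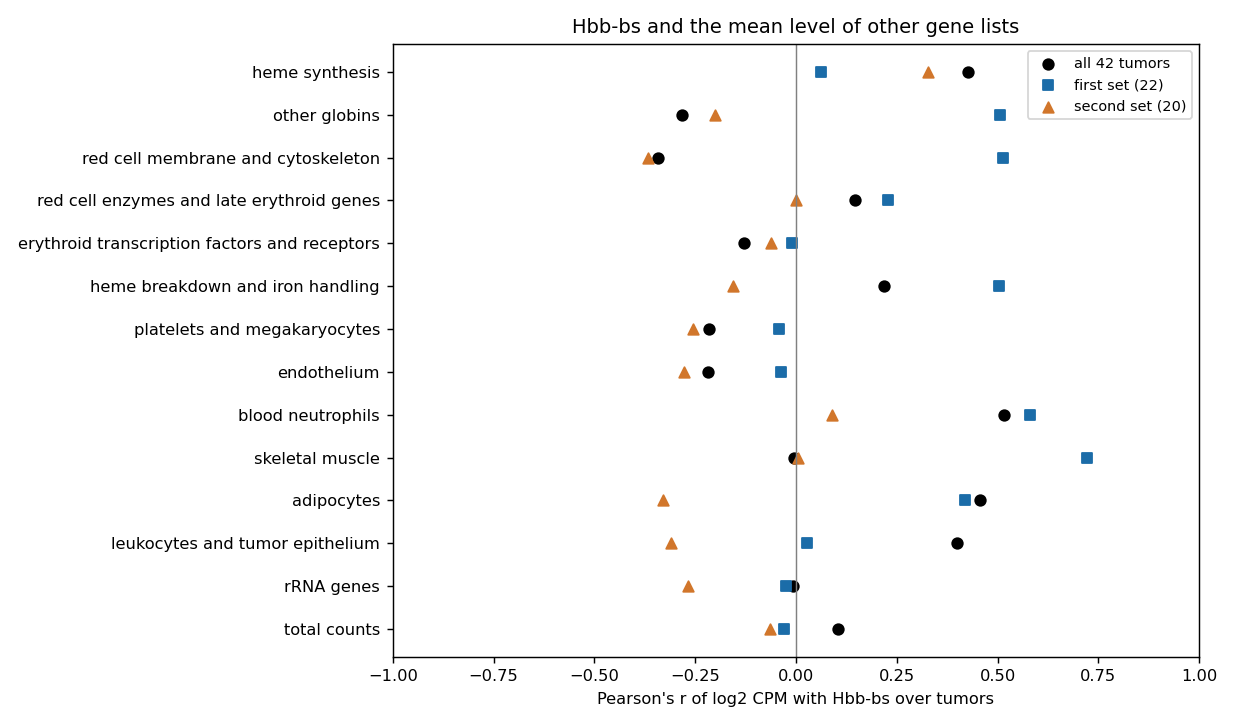
Pearson's r between log2 CPM of Hbb-bs and the mean log2 CPM of each gene list, the rRNA genes or the total count, over all 42 tumors (black), the first set (blue squares, 22 tumors) and the second (orange triangles, 20 tumors). The adipocyte list is at 0.46 over all tumors and at -0.33 in the second set.

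The genes whose levels went most closely with the mean of the 4 tested members over 42 tumors belonged to none of the lists. Plk2, a polo-like kinase, had r = 0.80 (0.66 and 0.77 within sets). Snrnp48, a spliceosome protein, and Hsp90aa1, a chaperone, both had r = 0.74. Hspd1 and Hspe1, the mitochondrial chaperonin pair, had 0.73 and 0.68, and Cacybp, which binds calcyclin, had 0.71. The other 6 were Cebpz, Ptrh2, Noc3l and Timm10 at 0.69, Gnpnat1 at 0.68 and D030056L22Rik at 0.67. All 12 were 0.17 to 0.29 higher on the log2 scale in the second set. Without the pair of highest tumors 3 of these 12 (Plk2, Gnpnat1 and Noc3l) remained among the closest, Psph and Ctu2 led with 0.73 each, and Cpox was among them with r = 0.70. Within the first and second sets r was 0.56 and 0.29 for Psph, 0.48 and 0.10 for Ctu2 and 0.34 and 0.48 for Cpox. The tumors share library and depth, and these values carry no test.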

How the data were processed

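RNA of 42 tumors was sequenced as paired 100-base reads from poly(A) libraries. The authors aligned reads with Bowtie 1.2.3 to transcriptomes of the Collaborative Cross founders on GRCm38 and deposited expected counts per gene from gbrs, which divide reads shared by several genes. Counts were rounded to whole numbers. Gene symbols and coordinates came from GENCODE on GRCm38, of an earlier release than the authors', and promoters from RefSeq GRCm38.p6. All samples were grouped by their labels. Genes passing filterByExpr (minimum count 10, minimum total 15; 16932 of 26811) were fitted over all tumors with edgeR 4.0.16 (TMM scaling, quasi-likelihood test, Benjamini-Hochberg adjusted p of 0.05) in R 4.3.3, and log2 CPM used a prior count of 2. The scripts were tested on simulated data. Likeness used the mean of the 4 tested members. Alternatives were DESeq2 1.42.0, other scaling and filters, set terms, a replicate block and left-out tumors. Named genes were the members, up to 4 called genes with the largest change per list and comparison, and the 12 genes most alike. The members and lists were chosen with earlier results of these data known. Correlations used scipy 1.17.1. A floor of 3 counts stood for a count of 0 and covers counting error only. Hbb-y, Hbb-bh1, Hba-x, Ahsp and Car1 were not analysed here, and some genes of the lists are not reported here.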

Additional observations from a re-analysis of the deposited data

Results flagged for a closer look

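In aPD1 replicate 3, Hbb-bs was at 279 CPM, Hbb-bt at 42.6 CPM, Hba-a2 at 323 CPM and Alas2 at 9.25 CPM. In each gene this tumor lay far from the other 5 of its group: its gap to the next tumor was 0.741, 0.817, 0.695 and 0.860 of the group's whole range, above Dixon's 95% critical value for 6 tumors. Of 21 group values checked, 4 were marked in this way, all in 1 tumor and in genes that move together, and chance marks about 1 in 20. These genes were chosen because their levels stood out in these tumors, so the marks describe the values and do not test them. The skeletal muscle sum was also highest in this tumor, and its part in the globin levels was not tested. Groups of more than 10 tumors were not checked, so aPD1 + aGMCSF + aIL2RB replicate 11 was not.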

How the results depend on the processing

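Settings changed how many of the 78 red cell and heme genes were called. Against isotype control, aPD1 gave 10 calls, and 6 with a filter of total counts of at least 5, 6 with only the compared groups, 0 in the first set and 16 in the second. Against isotype control, aPD1 + aIL2RB gave 3, and 1 in each set alone; aPD1 + aGMCSF + aIL2RB gave 9, and 5 with only the compared groups and 2 in the first set. Against aPD1, all tumors gave 16 calls for aPD1 + aGMCSF, 28 for aPD1 + aIL2RB and 31 for aPD1 + aGMCSF + aIL2RB. A separate fit of the first set gave 0, 14 and 1. The second set, with 20 tumors, gave 24, 23 and 36. Leaving out 1 tumor at a time gave 4 to 17, 1 to 3 and 2 to 12 calls against isotype control, 5 to 21, 18 to 32 and 27 to 33 against aPD1, and 14 to 20 (17 in all tumors) between sets. A count moved by over 1.5 times in aPD1 against isotype control without aPD1 replicates 2, 4, 5 or 6 (17, 4, 5 and 6) or isotype control replicates 1 or 4 (6 and 5), in aPD1 + aIL2RB and aPD1 + aGMCSF + aIL2RB against isotype control without isotype control replicate 2 (1 and 4) and, in the latter, replicate 4 (2), in aPD1 + aGMCSF against aPD1 without aPD1 replicates 4, 5 or 6 (5, 10 and 10), and in aPD1 + aIL2RB against aPD1 without aPD1 replicate 4 (18). The named list genes kept their direction in all settings, and lost the call in 56 of 352 values, or in 54 of 634 with 1 tumor left out.

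Hbb-bs in aPD1 against isotype control (0.79) became 3.54 in the first set, -0.72 in the second and -0.67 without the pair of highest tumors, which was chosen after seeing the data, and 1.85 with the set as a term. Against aPD1 it became -0.066 (aPD1 + aGMCSF) and 0.36 (aPD1 + aIL2RB) without that pair, and -3.13 and 0.63 for aPD1 + aIL2RB and -3.14 and 1.48 for aPD1 + aGMCSF + aIL2RB in the first and second set. With the set as a term and without that pair it became 0.69 (aPD1 + aGMCSF) and 0.55 (aPD1 + aIL2RB) against aPD1, where the set term alone gave -1.81 and -1.91. In aPD1 + aGMCSF against isotype control it was 1.42 in the first set. Leaving out 1 tumor gave -0.68 to 1.196, -0.995 to -0.32, -0.58 to 0.10 and -0.92 to 0.82 against isotype control, -1.76 to -0.0496, -1.37 to 0.37 and -1.72 to 1.10 against aPD1, and 1.19 to 2.18 between sets. aPD1 replicate 3 gave -0.68, -0.0496, 0.37 and 1.10, aPD1 + aGMCSF + aIL2RB replicate 11 gave -0.92 and -1.72, and the cause was not tested.

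With a replicate block, calls were 9 in aPD1 + aIL2RB and 15 in aPD1 + aGMCSF + aIL2RB against isotype control and 1 between sets, where Hbb-bt was at -0.26 and Alas2 at -0.19 because blocks and sets overlap, and Hbb-bs was at -1.25 in aPD1 + aGMCSF + aIL2RB against isotype control. Hbb-bs was called lower than in aPD1 with that block in aPD1 + aIL2RB (-1.57) and aPD1 + aGMCSF + aIL2RB (-1.63), beside 28.1% and 31.3% of all genes. Deviations of same-numbered tumors from their group means correlated weakly (r from -0.12 to 0.19). These values cannot decide whether the numbers pair tumors, since the same number lies in different sets in some groups.

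The correlation of Hbb-bs changed sign in the first set for other globins (0.51), membrane genes (0.51), skeletal muscle (0.72, or 0.51 without aPD1 replicate 3, added after seeing the data) and total counts (-0.0305). It did in the second set for red cell enzymes (-0.0012), heme breakdown (-0.16), skeletal muscle (0.0061), adipocytes (-0.33), leukocytes and epithelium (-0.31) and total counts (-0.0651), for skeletal muscle with deviations from group means (0.0102), and for rRNA genes without the pair of highest tumors (0.14).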
